A study of Mus musculus with 2 samples.

Results

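Ion channel genes were followed through the 4 hormone classes of mouse pancreatic islet cells. The members were all gene symbols in the deposited gene list that begin with Kcn, Cacn, Scn plus a digit or Hcn plus a digit, with at least 20 UMIs (unique molecular identifiers, each standing for 1 captured RNA molecule) over all kept cells. Kcnj11, Cacna1c and Cacna1d, which code for the pore subunits best known in islets, and the long RNA Kcnq1ot1 were outside the set. Of 139 listed symbols, 98 reached the minimum, 27 had 1 to 19 UMIs and 14 had none; the files list 31053 genes, of which 16446 had 20 UMIs or more. Kcna4 with 21 UMIs and Cacng8 with 22 lay just inside the minimum, and Cacng1 with 19 and Scn1a with 18 just outside it.

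The series compared 2 groups of C57BL/6J mice aged 13 weeks, with 1 droplet single-cell library each: a group labelled CD, which the labels do not spell out, and a group on a high-fat diet (HFD), used as a model of prediabetes. The sources used here do not say how many animals were pooled. With 1 library per diet nothing below is a test of diet, no p-value can be given, and every interval covers counting error only.

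Insulin, glucagon, somatostatin and pancreatic polypeptide are released by β, α, δ and PP cells when calcium enters through voltage-gated channels. In β cells, metabolism of glucose closes potassium channels that are open at rest, the membrane depolarises, sodium and calcium channels carry the action potential, and voltage-gated and calcium-activated potassium channels end it. Two-pore domain potassium channels and inward rectifiers set the resting potential, and accessory subunits change the gating and the surface number of the pore subunits they bind.

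The deposited matrices hold 265836346 UMIs for CD and 271527648 for HFD. Barcodes with at least 1500 UMIs, at least 500 genes and at most 15% mitochondrially encoded UMIs were kept as cells, 9667 in CD and 12062 in HFD; 26 barcode sequences occurred in both. A cell was β with 30% or more of its UMIs on Ins1 and Ins2, α with 10% or more on Gcg, δ with 3% or more on Sst and PP with 20% or more on Ppy. Cells that met 2 or more of these limits were set aside (144 in CD, 143 in HFD). That left 6515 β, 1272 α, 570 δ and 328 PP cells in CD, and 7433, 2005, 662 and 535 in HFD. Median UMIs per cell ran from 4781 (δ, HFD) to 26671 (β, CD), and the median mitochondrial share was higher in HFD in each class (2.70 against 3.78% in β, 3.23 against 5.40% in δ).

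Genes outside the class rule were used to check the names. In the δ class Hhex, a transcription factor of δ cells, stood at 218 and 228 raw CPM (CPM of total UMIs, with no further scaling) in CD and HFD, against at most 8.52 in any other class. Irx2 in the α class (96.9 and 97.0) and Slc2a2 in the β class (238 and 224) were likewise highest where their names place them. The PP class had Pyy at 108652 and 74892 raw CPM, but Id4, another of its listed markers, at 0.668 and 1.09, below its level in δ cells (9.50 and 9.27). Fxyd6 too was lower there (56.6 and 45.4) than in any other class, so 2 of the 4 PP markers go against the label, and PP here means cells high in Ppy. The δ class also carried 4.42 and 4.21% of its UMIs on insulin and 3.55 and 3.92% on Ppy. The estimated share of free RNA (RNA of broken cells that enters every droplet) lay between 7.24 and 22.2% of a class.

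Levels are given as CPM after TMM scaling (trimmed mean of M values), which sets the totals so that most genes are level between classes. The libraries count the 3' ends of RNAs, so levels are compared between cells for 1 gene and not between genes. The 98 members together made up 737 and 800 CPM in β cells (CD and HFD), 677 and 709 in α, 959 and 1011 in δ and 807 and 845 in PP cells. A member entered the class comparison with a mean of at least 5 CPM over the 4 classes in both libraries, which 26 did and 72 did not. A gene that is seen in 1 class alone can pass this minimum only through a high level there, so the counts that follow describe the 26 and not all members.

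**Figure D1:**
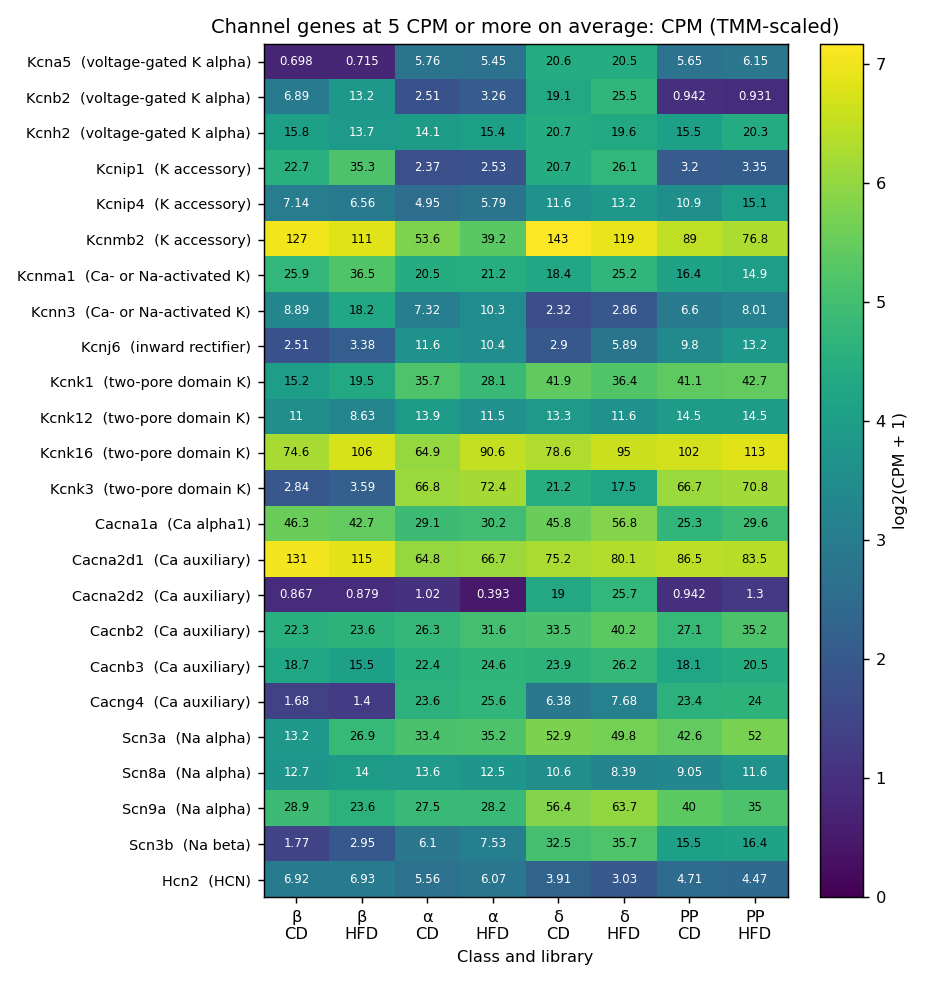
CPM of 24 of the 26 channel genes at 5 CPM or more on average (rows, with the role of each), in each class and library (columns, CD and HFD side by side). Colour is log2(CPM + 1) and the printed number is the CPM; rows are to be read from left to right, since 3' counts do not compare genes. Kcnk3 is low in β cells (2.84 and 3.59 CPM) and high in α and PP cells, and Cacna2d2 is high in δ cells alone among the 4 classes.

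A member was called highest in a class when it was at least 2-fold above each of the 3 other classes in both libraries, and lowest when at least 2-fold below each of them. In δ cells 3 of 26 members were highest, which is 11.5%, where 1.11% of all 8573 genes tested were. These were Cacna2d2, Kcna5 and Scn3b. Cacna2d2 and Kcna5 reached the level minimum only through their δ level, so the share of 11.5% rests in part on that filter. In β cells 4 of 26 were lowest, 15.4% against 1.84% of all genes: Kcna5, Kcnk3, Cacng4 and Scn3b. Since Kcna5 is among them, the share of 15.4% rests in part on that filter too. No member was highest in β cells, where 2.39% of all genes were, and none in α (0.49%) or PP cells (0.152%). None was lowest in α cells (0.513% of all genes); Kcnn3 was lowest in δ cells (0.653%) and Kcnb2 in PP cells (0.175%). For 18 of the 26 the top class was the same in both libraries: δ for 8, β for 6, α for 2 and PP for 2. The δ share was 30.8% of the members and 10.7% of all genes tested, and the β share 23.1 and 31.9%. Among the 8 with δ on top, Cacna2d2 and Kcna5, and Kcnb2 in CD, reached the level minimum only through their δ level. The share of 30.8% thus also rests in part on the filter.

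These shares depend on how totals are set. Scaled by total UMIs, which the hormone RNAs of β cells dominate, 9 of 27 members were highest in δ cells, as were 7.09% of all genes, and 7 were lowest in β cells, as were 7.89%, while the median gene itself moved to a log2 ratio of 1.25 (CD) and 1.30 (HFD) between δ and β cells, from -0.11 and -0.16 with TMM. With the hormone and mitochondrial genes left out of the total, 7 of 39 members were highest in δ and 6 lowest in β cells, against 1.95% of all genes in either case. The 3 δ genes and the 4 β genes named above were called under all 3 scalings. Orders that rest on under 2-fold can turn: by raw CPM Cacna1a was at 29.7 and 26.1 in β and 32.9 and 33.7 in α cells, Kcnma1 at 16.6 and 22.3 in β and 23.2 and 23.7 in α cells, and Hcn4 at 2.90 and 3.74 in β and 4.04 and 7.47 in δ cells, each the reverse of its order by TMM.

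Pore subunits of the voltage-gated potassium family numbered 27 members, 5 of them above the level minimum. Kcna5 codes for a shaker-type delayed rectifier. Its level was 0.698, 5.76, 20.6 and 5.65 CPM in β, α, δ and PP cells of the CD library and 0.715, 5.45, 20.5 and 6.15 CPM in HFD. In both libraries δ cells were on top and β cells lowest, and α and PP cells, with ratios of 1.02 (0.665 to 1.60) and 0.887 (0.592 to 1.36), could not be told apart. The δ level was 29.5-fold that of β cells in CD (95% interval 22.5 to 38.8) and 28.7-fold in HFD (21.5 to 38.4), and 3.57-fold and 3.76-fold that of α cells. At least 1 Kcna5 UMI was seen in 21.8% of δ cells in CD and 16.2% in HFD. After each cell was thinned to 3000 UMIs these shares were 9.51 and 10.6% in δ cells, at median depths of 6442 and 4781 before thinning, and 0.0483 and 0.176% in β cells, the class with the lowest level (26671 and 24050). Kcna5 was also seen outside the hormone classes, at 121 and 49.4 raw CPM in mesenchymal-like cells. The 7 mesenchymal markers summed to 62.7 and 39.8 raw CPM in the δ class, against 14372 and 14789 in the mesenchymal-like cells themselves, and none of the 7 was at 0 in δ cells.

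Kcnb2 codes for a delayed rectifier of another family and had another order: 19.1 and 25.5 CPM in δ, 6.89 and 13.2 in β, 2.51 and 3.26 in α, and 0.942 and 0.931 CPM in PP cells (5 UMIs in each library). The ratio of δ to β for Kcnb2 was 2.78 in CD (2.30 to 3.34) and 1.94 in HFD (1.62 to 2.30), so that it missed the 2-fold limit in 1 library. By raw CPM Kcnb2 was at 31.3 and 42.7 in δ and 4.41 and 8.05 in β cells, and was called highest in δ cells. Kcnh2, the pore of the cardiac rapid delayed rectifier, ranged only from 13.7 to 20.7 CPM over the 8 class sums with TMM. By raw CPM Kcnh2 was at 34.0 and 32.9 in δ and 10.2 and 8.40 in β cells.

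The level minimum hides genes that are low on average and present in 1 class. Without it, at 20 UMIs over all cells, 14 of the 98 members were highest in δ cells, against 2.15% of all 16446 genes. These were Cacna1h, Cacna1i, Cacna2d2, Cacna2d3, Cacng2, Kcna5, Kcnc2, Kcnd2, Kcnj13, Kcnj2, Kcnj4, Kcnk2, Kcnmb4 and Scn3b. In β cells 6 members were highest (2.94% of all genes), in α cells 2 (0.717%), and in PP cells none (0.383%). Some of the counts are small, down to 6 and 8 UMIs for Cacna1i in δ cells.

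**Figure D2:**
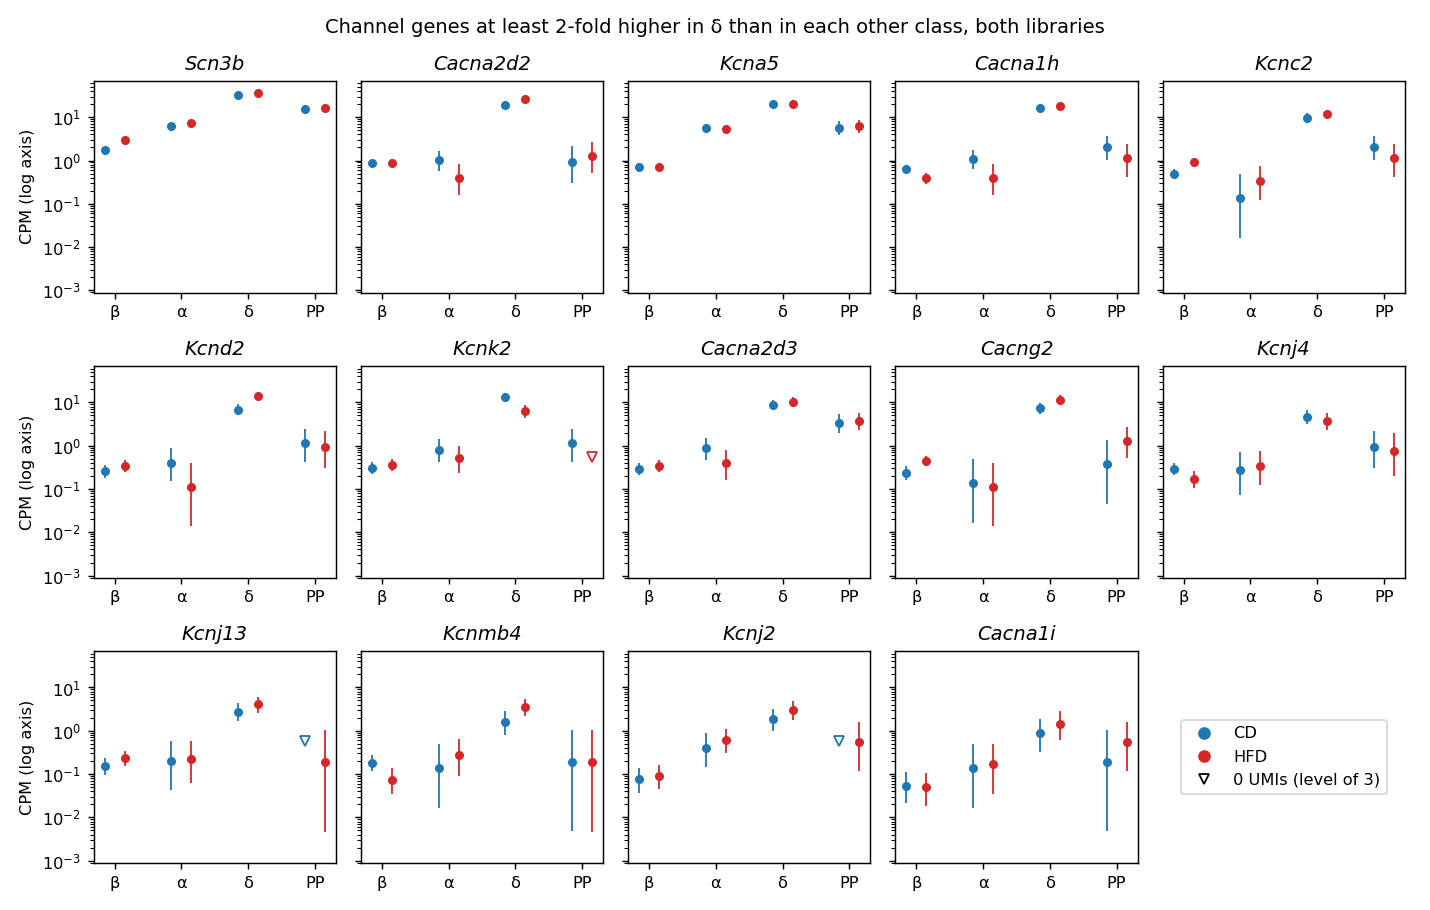
CPM (log axis) in β, α, δ and PP cells for the 14 channel genes that were at least 2-fold higher in δ than in each other class in both libraries, without a level minimum. Blue points are CD, red points HFD, bars are exact 95% counting intervals, and an open triangle marks a class with 0 UMIs, drawn at the level of 3 UMIs; the δ points of Cacna2d2, at 18.99 and 25.7 CPM, lie above all other classes.

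Besides Kcna5, 6 of these 14 are pore subunits of potassium channels. Kcnd2, the pore of a fast inactivating A-type current, stood at 6.81 and 13.9 CPM in δ cells, against at most 1.13 CPM elsewhere. Kcnc2, a high-threshold channel of fast-spiking cells, had 9.71 and 11.6 CPM in δ cells and at most 2.07 CPM elsewhere. The inward rectifiers Kcnj4 (4.64 and 3.75 CPM in δ cells) and Kcnj2 (1.88 and 3.03) came with fewer UMIs, 32 and 21 for Kcnj4 and 13 and 17 for Kcnj2. The third inward rectifier, Kcnj13, was at 2.75 and 4.11 CPM in δ cells.

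For the voltage-gated potassium genes Kcna5 and Kcnd2, which are both highest in δ cells, and for Kcnip2, which is highest in β cells and codes for a partner of Kcnd2, the 250 bases before the RefSeq transcription start are shown so that their composition can be compared. They are from build GRCm38.p6, read 5′ to 3′ on the gene's strand, at chr6:126535556-126535805 (minus strand) for Kcna5, chr6:21215096-21215345 (plus strand) for Kcnd2 and chr19:45816064-45816313 (minus strand) for Kcnip2, with GC boxes in capitals.
Kcna5: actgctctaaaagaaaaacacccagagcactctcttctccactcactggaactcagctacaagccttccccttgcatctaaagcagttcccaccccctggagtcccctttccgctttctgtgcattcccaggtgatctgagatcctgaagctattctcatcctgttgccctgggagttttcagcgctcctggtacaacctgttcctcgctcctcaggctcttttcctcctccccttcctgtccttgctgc
Kcnd2: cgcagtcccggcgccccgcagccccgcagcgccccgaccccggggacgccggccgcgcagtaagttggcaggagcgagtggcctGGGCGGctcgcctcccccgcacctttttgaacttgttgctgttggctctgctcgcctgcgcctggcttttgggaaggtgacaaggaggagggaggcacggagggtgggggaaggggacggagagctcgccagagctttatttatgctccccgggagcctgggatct
Kcnip2: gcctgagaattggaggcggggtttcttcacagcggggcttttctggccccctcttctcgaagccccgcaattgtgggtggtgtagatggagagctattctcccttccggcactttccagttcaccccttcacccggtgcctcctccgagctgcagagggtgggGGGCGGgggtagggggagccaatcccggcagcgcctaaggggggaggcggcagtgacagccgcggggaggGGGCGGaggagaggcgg
The window of Kcna5 is 53.2% G and C, that of Kcnd2 68.8% and that of Kcnip2 66.8%. The RefSeq starts of Kcna5 and Kcnd2 lie upstream of the GENCODE starts. Motifs were searched on both strands. They were TATAAA, a core promoter element, the cAMP response element TGACGTCA, the GC box, written as GGGCGG, the homeodomain core, written as TAATTA, and the E-box, written as CACGTG. None overlapped another in the windows shown. Kcnd2 holds 1 GC box, starting 166 bases before the start site, Kcnip2 holds 2, at 87 and 17 bases, and Kcna5 none of the 5 motifs. Over the 98 windows of the 71 members with an entry, 45.9% hold a GC box and 3.06% TATAAA, against 32.7 and 12.4% of all 32851 windows. CACGTG is in 5.10% of the members' windows and 6.02% of all, and TGACGTCA and TAATTA are in none of the members' and in 1.55 and 4.84% of all. A match describes the letters of the window and not a site in use.

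Accessory subunits of potassium channels were 12 members. Kcnip1, a calcium-binding partner of A-type channels, split the classes in a way no call with TMM captures: 22.7 and 35.3 CPM in β and 20.7 and 26.1 in δ cells, but 2.37 and 2.53 in α and 3.20 and 3.35 in PP cells. By raw CPM Kcnip1 was at 34.0 and 43.6 in δ and 14.5 and 21.6 in β cells, and was called highest in δ cells. The β level was 9.55-fold the α level in CD (6.85 to 13.7) and 13.9-fold in HFD (10.4 to 19.1). Its relative Kcnip3, which also binds calcium and acts in the nucleus, was distributed in the opposite way, at 12.8 and 8.83 CPM in α, 16.02 and 8.94 in PP, 2.17 and 1.43 in δ and 0.353 and 0.279 in β cells. Kcnip2 was seen nearly in β cells alone among the 4 classes, with 3.28 and 7.54 CPM there and at most 1.25 CPM elsewhere. Kcnmb2, which inactivates the large-conductance calcium-activated channel, was at 127 and 111 CPM in β and 143 and 119 in δ cells, above 53.6 and 39.2 in α and 89.0 and 76.8 in PP cells. By raw CPM Kcnmb2 was at 234 and 199 in δ and 81.6 and 68.0 in β cells, and was likewise called highest in δ cells. The pore it binds, Kcnma1, was at 25.9 and 36.5 CPM in β cells and between 14.9 and 25.2 CPM in the others.

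Small-conductance calcium-activated channels pace bursts in β cells. Kcnn3, a pore of this kind, was lowest in δ cells, at 2.32 and 2.86 CPM (16 UMIs in each library), and stood at 8.89 and 18.2 in β, 7.32 and 10.3 in α and 6.60 and 8.01 CPM in PP cells. The α level was 3.16-fold (1.86 to 5.72) and 3.60-fold (2.16 to 6.44) the δ level. By raw CPM Kcnn3 was at 3.80 and 4.78 in δ and 5.85 and 6.67 in PP cells, and its call was lost. The call was also lost with cells kept in every class they met, and with other hormones at most 5%. The sodium- or calcium-activated group had 7 members in all. Only 2, Kcnn3 and Kcnma1, were above the level minimum, and neither was highest in a class. Since 0.152 to 2.39% of all genes were highest in a given class, this says little of the group.

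Two-pore domain channels, which leak potassium at rest, were 9 members. Kcnk3 was at 66.8 and 72.4 CPM in α, 66.7 and 70.8 in PP, 21.2 and 17.5 in δ and 2.84 and 3.59 CPM in β cells. The α and PP levels could not be told apart, with a ratio of 1.00 (0.886 to 1.13) in CD and 1.02 (0.911 to 1.15) in HFD, while α exceeded β cells 23.5-fold (20.9 to 26.6) and 20.2-fold (18.1 to 22.5). Kcnk16, a channel known for its expression in pancreas, was at 64.9 to 113 CPM in all 8 class sums. Its PP level (102 and 113 CPM) was above the other classes by under 2-fold, and by raw CPM its δ level was (129 and 159, against 90.0 and 94.4 in PP cells). Kcnk1 was lower in β cells, at 15.2 and 19.5 CPM, and between 28.1 and 42.7 CPM elsewhere. Kcnk2, which responds to stretch and lipids, was seen mostly in δ cells, at 13.0 and 6.25 CPM, against at most 1.13 CPM in the other classes.

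The inward rectifier list (10 members) had 1 gene above the minimum. Kcnj6, a G protein-gated channel, was at 11.6 and 10.4 CPM in α and 9.80 and 13.2 in PP cells, 2.90 and 5.89 in δ and 2.51 and 3.38 in β cells. Kcnj3, with which it can form a channel, had its highest level in α cells, 8.003 and 9.78 CPM, against 3.77 and 3.54 in PP, 3.48 and 3.03 in δ and 0.184 and 0.419 CPM in β cells. Kcnj12 was the reverse, at 5.67 and 2.58 CPM in β cells and at most 0.290 CPM in any other class.

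Pore subunits of calcium channels were 7 members once Cacna1c and Cacna1d had been left out. Cacna1a, of the P/Q type that triggers exocytosis, was at 46.3 and 42.7 CPM in β and 45.8 and 56.8 in δ cells, above 29.1 and 30.2 in α and 25.3 and 29.6 in PP cells. By raw CPM it was at 75.0 and 95.1 in δ and 29.7 and 26.1 in β cells, and was called highest in δ cells. Cacna1b, of the N type, lay between 3.02 and 6.67 CPM in the 8 sums with TMM. By raw CPM Cacna1b was at 10.9 and 10.8 in δ and 2.95 and 2.93 in β cells. Cacna1h, a low-threshold T-type channel that opens near the resting potential, was at 16.5 and 17.8 CPM in δ cells (114 and 100 UMIs) and at most 2.07 CPM elsewhere. Its δ level was 7.97-fold that of PP cells in CD (4.29 to 16.4) and 15.97-fold in HFD (7.08 to 44.5). Cacna1e, the R-type pore, had at most 1.07 CPM in any class.

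Auxiliary subunits of calcium channels were 12 members, 5 of them above the level minimum. Cacna2d1, the α2δ subunit with the most UMIs, was at 131 and 115 CPM in β cells, against 64.8 to 86.5 elsewhere. By raw CPM it was at 84.0 and 70.6 in β cells and above them in δ cells, at 123 and 134. Cacna2d2, another α2δ subunit, stood at 18.99 and 25.7 CPM in δ cells and 0.867 and 0.879 in β, 1.02 and 0.393 in α and 0.942 and 1.30 CPM in PP cells. The smallest of its 6 folds was 18.7 (10.9 to 34.3), over α cells in CD, and the largest 65.3 (30.9 to 165), over α cells in HFD. A Cacna2d2 UMI was present in 19.3 and 19.2% of δ cells as sequenced and 8.96 and 13.1% at 3000 UMIs, where 0.226 and 0.217% of β cells had one. Cacna2d3 followed in δ cells at 8.84 and 10.2 CPM, with 3.39 and 3.73 in PP cells. Cacng4 and Cacng2 belong to a family that also escorts glutamate receptors. Cacng4 was shared by α (23.6 and 25.6 CPM) and PP cells (23.4 and 24.0), with 6.38 and 7.68 in δ and 1.68 and 1.40 in β cells, while Cacng2 was at 7.39 and 11.6 CPM in δ cells and at most 1.30 CPM elsewhere.

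Sodium channels contributed 5 pore and 3 β-subunit members. Scn9a was at 56.4 and 63.7 CPM in δ, 39.95 and 35.0 in PP, 27.5 and 28.2 in α and 28.9 and 23.6 in β cells. Its ratio of δ to PP cells was 1.41 (1.19 to 1.68) and 1.82 (1.52 to 2.18), under the 2-fold limit. By raw CPM Scn9a was at 92.4 and 107 in δ and 35.4 and 29.2 in PP cells, and was called highest in δ cells. Scn3a, the other main pore of islet cells, was lower in β cells of both libraries (13.2 and 26.9 CPM) and at 52.9 and 49.8 in δ, 42.6 and 52.0 in PP and 33.4 and 35.2 CPM in α cells. Scn8a varied little with TMM, from 8.39 to 14.0 CPM. By raw CPM Scn8a was at 17.3 and 14.0 in δ and 8.14 and 8.55 in β cells. Scn3b, a β subunit, was at 32.5 and 35.7 CPM in δ, 15.5 and 16.4 in PP, 6.10 and 7.53 in α and 1.77 and 2.95 in β cells; the order of the classes was the same in both libraries. Its ratio of δ to PP cells, 2.10 (1.62 to 2.74) and 2.18 (1.69 to 2.83), only just passed the limit. Of the 4 HCN pacemaker genes, Hcn2 was at 6.92 and 6.93 CPM in β and 3.91 and 3.03 in δ cells. By raw CPM this order turned, with 4.44 and 4.24 in β and 6.41 and 5.08 in δ cells. Hcn4 was at 4.53 and 6.11 CPM in β, 2.46 and 4.46 in δ and at most 0.942 CPM in α and PP cells.

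The δ class was the shallowest and held other hormones, so the calls were repeated in cells with at most 5% of UMIs on the other hormones, which left 196 and 126 δ cells. Kcna5, Cacna1h and Kcnb2 were then the 3 members called highest in δ cells, so that the calls of Cacna2d2 and Scn3b were lost. Scn3b was at 33.3 CPM in δ and 18.1 in PP cells of HFD, under 2-fold apart. Cacna2d2, at 17.7 and 23.6 CPM in δ cells and at most 1.47 elsewhere, missed the level minimum in CD. The call of Scn3b was also lost with every cell counted alike, and at 10 CPM only Scn3b was called.

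Several members lay mainly outside the hormone classes. Cells that met no hormone limit were sorted by detection of at least 3 markers of a single list, which gave 322 and 529 endothelial-like, 145 and 201 macrophage-like, 107 and 184 mesenchymal-like, 77 and 116 ductal-like and 10 and 7 Schwann-like cells (CD and HFD). For 10 members under 50% of UMIs were in the 4 hormone classes. Kcnj8, the pore of the vascular ATP-sensitive channel, was at 95.3 and 96.8 raw CPM in mesenchymal-like cells, with 17.4% of its 115 UMIs in hormone cells. Kcne4 was found with it, at 36.6 and 51.5 raw CPM. Kcnq1, Kcne3 and Kcnk5 were seen in endothelial-like (14.7 and 22.2, 4.91 and 18.1, and 11.1 and 17.7) and ductal-like cells (9.19 and 21.7, 5.85 and 33.7, and 6.68 and 11.2). Kcnj15 was seen in endothelial-like cells (6.14 and 7.90), Kcnk6 in endothelial-like and macrophage-like cells, and Kcnj10 in macrophage-like cells (16.5 and 19.5, from 12 and 17 UMIs). Of 74 UMIs of Kcna1, 41 were in the 17 Schwann-like cells, as were 67 of 248 of Scn7a, whose level in mesenchymal-like cells was 114 and 49.4 raw CPM.

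**Figure D3:**
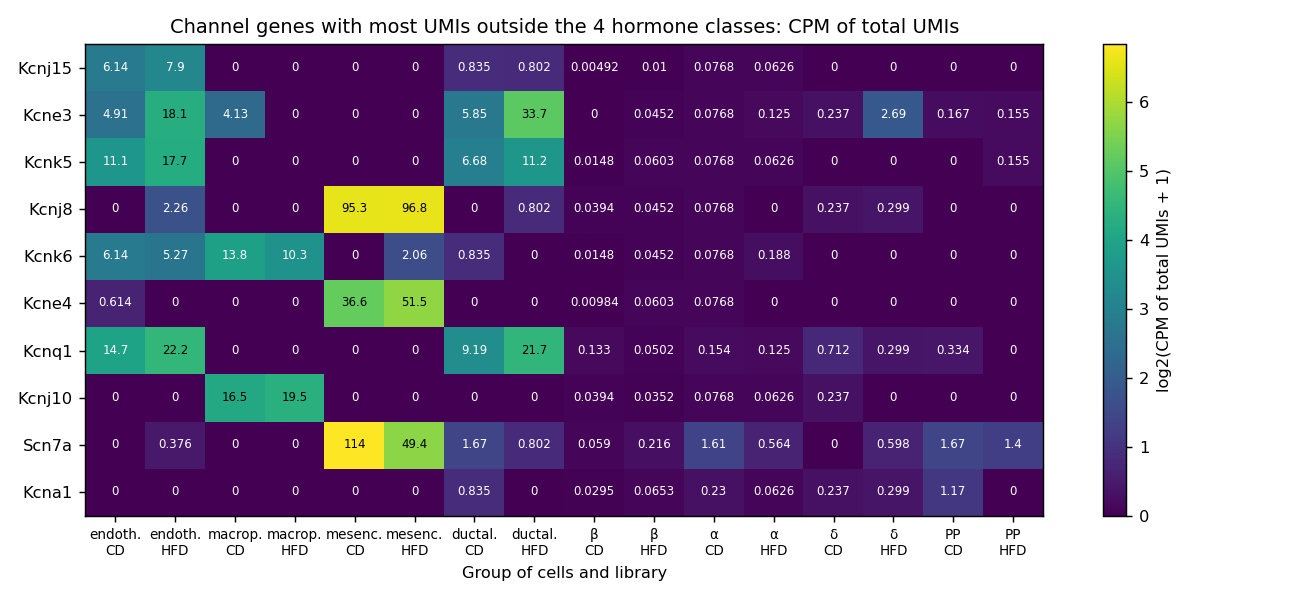
Raw CPM (CPM of total UMIs) of the 10 channel genes with under 50% of their UMIs in the 4 hormone classes, in endothelial-like, macrophage-like, mesenchymal-like and ductal-like cells and in the hormone classes, for CD and HFD. Colour is log2(value + 1) and the printed number is the value; Kcnj8 stands at 95.3 and 96.8 in mesenchymal-like cells and at most 0.299 in any hormone class.

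The second comparison set HFD against CD within each class. A member was tested in a class with a mean of at least 5 CPM over the libraries and at least 50 UMIs, and was called at a 1.5-fold difference. In β cells 6 of 25 members were higher in HFD, 24.0%, where 3.8% of all 8798 genes tested were, and 1 was lower (2% of all genes). In α cells none of 25 was higher (4.62% of all genes) or lower (1.79%). In δ cells 2 of 31 were higher (5.19%) and 1 lower (5.28%), and in PP cells 1 of 25 was higher (5.24%) and 1 lower (3.28%). The median log2 ratio over the members was 0.09 in β, 0.08 in α, 0.13 in δ and 0.15 in PP cells, and 0.004, 0.018, -0.055 and 0.001 over all genes tested. In δ cells the members' median was -0.03 when other hormones were limited to 5%.

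**Figure D4:**
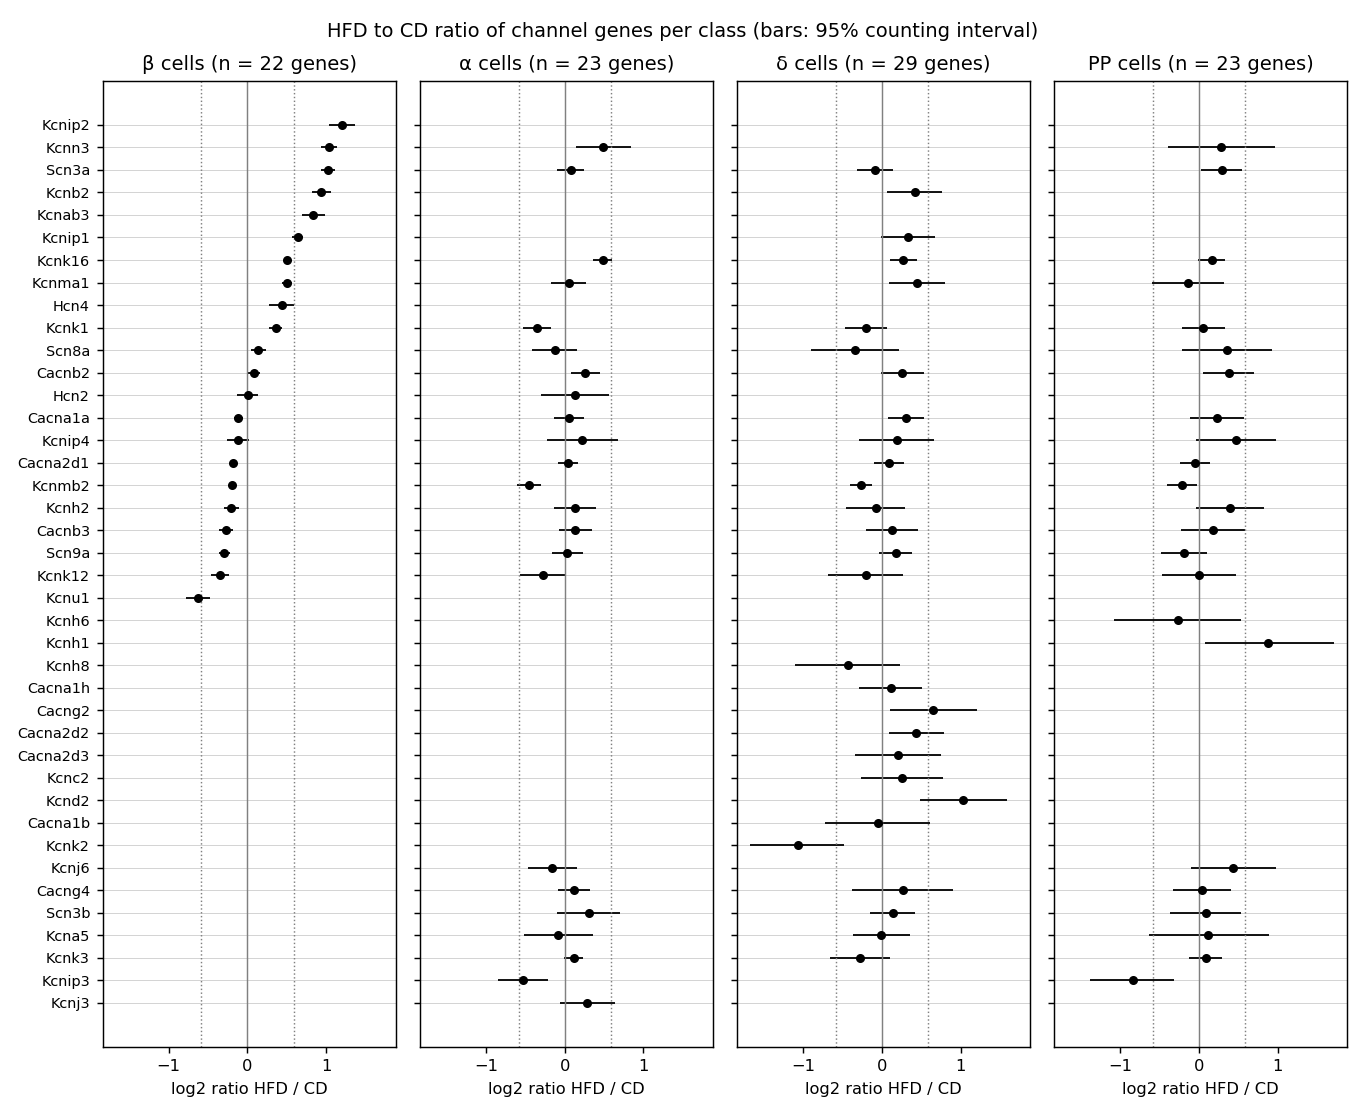
Log2 ratio of HFD to CD for channel genes tested in β (22 of 25 drawn), α (23 of 25), δ (29 of 31) and PP cells (23 of 25). Points are ratios of CPM, bars are exact 95% counting intervals, and dotted lines mark 1.5-fold in either direction; 6 genes lie past the upper line in β cells and none past either line in α cells.

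The 6 members higher in HFD β cells fall into 4 roles, with 3 accessory subunits of potassium channels among them. Kcnip2 was at 3.28 and 7.54 CPM (427 and 917 UMIs), and log2(HFD/CD) was 1.20 (1.03 to 1.37). Kcnab3, a β subunit of shaker-type channels, was at 4.81 and 8.59 CPM, and log2(HFD/CD) was 0.84 (0.69 to 0.98). Kcnip1, at 22.7 and 35.3 CPM, differed by a log2 ratio of 0.64 (0.57 to 0.71), close to the 1.5-fold limit. All 3 subunits bind voltage-gated potassium channels inside the cell. The antisense gene Kcnab3os, whose exons overlap Kcnab3, was at 0.929 and 0.378 CPM in β cells, and reads of the pair may be shared.

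Among pore subunits, Kcnb2 was at 6.89 CPM in CD and 13.2 in HFD β cells, and log2(HFD/CD) was 0.94 (0.82 to 1.06). Kcnn3 was at 8.89 and 18.2 CPM, and log2(HFD/CD) was 1.03 (0.93 to 1.14). Scn3a was at 13.2 and 26.9 CPM, and log2(HFD/CD) was 1.02 (0.94 to 1.11). At least 1 Scn3a UMI was seen in 19.97% of CD and 31.1% of HFD β cells, although HFD cells were shallower, and in 2.84 and 4.79% when thinned to 3000 UMIs. For Kcnn3 the thinned shares were 2.11 and 3.55%, and for Kcnip2 they were 0.709 and 1.56%. In δ cells, where Kcnn3 and Kcnip2 were low, 1.10 and 1.68% and 0.366 and 0.168% of thinned cells had a UMI of them.

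Of the other sodium channel pores in β cells, Scn9a was at 28.9 and 23.6 CPM, and log2(HFD/CD) was -0.29 (-0.37 to -0.22), and Scn8a at 12.7 and 14.0 CPM. Just under the limit lay Kcnk16, whose levels of 74.6 and 106 CPM gave a log2(HFD/CD) of 0.51 (0.47 to 0.54), and Kcnma1, whose 25.9 and 36.5 CPM gave 0.50 (0.43 to 0.56). Kcnk16 also stood higher in HFD α cells, at 64.9 and 90.6 CPM, and log2(HFD/CD) was 0.48 (0.37 to 0.60). The 1 member called lower in β cells was Kcnu1, a relative of the large-conductance channel known from sperm, at 7.14 and 4.64 CPM, and log2(HFD/CD) was -0.62 (-0.78 to -0.47). It was -0.56, inside the limit, once free RNA was subtracted.

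Without a level minimum 24 of 82 members with at least 20 UMIs in β cells were higher in HFD, against 11.3% of all genes, and 7 were lower, against 6.41%. Those higher include Kcnh1, an ether-a-go-go channel, at 1.94 and 6.56 CPM (253 and 798 UMIs), and log2(HFD/CD) was 1.76 (1.55 to 1.97). Among those lower, Kcnj12 was at 5.67 and 2.58 CPM, and log2(HFD/CD) was -1.14 (-1.33 to -0.94). Both genes were picked out for size after their values were seen.

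Beside these differences, the β class of HFD had a higher median mitochondrial share (3.78 against 2.70%) and fewer UMIs per cell, while its insulin share was 62.2 against 61.1%. The 7 endothelial markers summed to 31.4 raw CPM in HFD and 12.7 in CD β cells, the 7 macrophage markers to 60.8 and 39.7, the 7 mesenchymal markers to 7.56 and 3.03 and the 7 acinar markers to 7.92 and 28.6. Of the markers in these 4 lists only Amy2a2 was at 0, in HFD. The estimated share of free RNA was 13.4% in CD, from 7 genes, and 19.6% in HFD, from 4 of those genes. Since the gene sets differ, the 2 shares do not compare the libraries. By this estimate the 6 higher members stood at 4.21 to 8.65 times what free RNA would bring in HFD. With free RNA subtracted all 6 were still called, among 9 of 25 members in all. In that setting 6.54% of all genes tested were higher, against 3.8% without subtraction. The part of these markers, of depth and of the mitochondrial share in the result was not tested, and diet and library cannot be told apart.

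In δ cells Kcnd2 was at 6.81 CPM in CD and 13.9 in HFD (47 and 78 UMIs), and log2(HFD/CD) was 1.03 (0.49 to 1.59). Cacng2 was at 7.39 and 11.6 CPM, and log2(HFD/CD) was 0.65 (0.10 to 1.21), and was inside the limit with a 10% mitochondrial limit (0.54). Kcnk2 was at 13.0 and 6.25 CPM (90 and 35 UMIs), and log2(HFD/CD) was -1.06 (-1.67 to -0.48). Kcnk2 is also a gene of the mesenchymal-like cells, at 73.3 and 16.5 raw CPM there. The mesenchymal markers in δ cells summed to 62.7 in CD and 39.8 in HFD. Rgs5 (27.1 and 12.6), Dcn (23.7 and 3.59) and Acta2 (7.84 and 0.299) were lower in HFD. Col1a1 (0.237 and 2.69), Col1a2 (0.95 and 6.58), Col3a1 (0.712 and 11.7) and Pdgfrb (2.14 and 2.39) were higher. What the markers add to the difference was not tested. With other hormones at most 5% the log2 ratio of Kcnk2 was -0.26. Of the other δ genes, Kcna5 was at 20.6 and 20.5 CPM, Cacna1h and Scn3b had log2 ratios of 0.11 (-0.29 to 0.51) and 0.14 (-0.15 to 0.42), and Cacna2d2 had 0.44 (0.09 to 0.79).

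In δ cells the endothelial markers summed to 81.9 raw CPM in CD and 165 in HFD and the macrophage markers to 161 and 249, of which Csf1r was at 0 in HFD. In PP cells these sums were 18.7 and 37.2, and 24.1 and 40.5. Their part in the δ and PP differences was not tested.

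In PP cells Kcnh1 was at 3.96 and 7.27 CPM (21 and 39 UMIs), and log2(HFD/CD) was 0.88 (0.08 to 1.72). No UMI of Kcnh1 was seen in the 570 and 662 δ cells, which allows a share of up to 0.526 and 0.453% of cells with a UMI by the limit of 3 counts, in the class with the fewest UMIs per cell. Kcnip3 was lower in PP cells of HFD, 8.94 against 16.02 CPM, and log2(HFD/CD) was -0.84 (-1.38 to -0.31). In α cells it was at 12.8 and 8.83 CPM, and log2(HFD/CD) was -0.53 (-0.85 to -0.22), short of the limit.

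Other genes of excitability were followed in a list of 42. It held pumps, calcium release channels, Trp channels, other channel and transporter genes such as Nalcn, Orai1 and Slc8a1, and non-channel partners of the families above. Of 27 above the level minimum, 4 were highest in β cells, the calcium pumps Atp2a2 and Atp2a3, the release channel Itpr2 and the calcium-activated cation channel Trpm5. Among all genes tested 2.39% were highest in β and 1.11% in δ cells. The shares lowest were 1.84% in β and 0.513% in α cells. Trpm5 was at 112 and 68.0 CPM in β and at most 3.77 CPM in other cells. Dpp6, a membrane partner of A-type channels such as Kcnd2, was the 1 partner highest in δ cells, at 72.3 and 92.8 CPM against at most 8.29 elsewhere. Itpr1 was lowest in β cells (22.9 and 26.2 CPM) and Amigo2, a membrane adhesion protein, in α cells (6.58 and 4.50 CPM). By raw CPM Atp2a3 was under 2-fold above δ cells in both libraries, and so was Atp2a2 in CD. Amigo2 in α cells was then under 2-fold below PP cells. The calls of Atp2a2, Atp2a3 and Amigo2 thus rest on TMM scaling. Between diets Atp2a3 was called higher in β (109 and 166 CPM), δ (30.6 and 52.1) and PP cells (27.5 and 42.7), and in α cells its log2 ratio was 0.55 (0.37 to 0.72). In β cells Trpm5, Amigo2 and Itpr3 were lower in HFD, with log2 ratios of -0.72, -0.92 and -0.68. Dpp10 and Unc79 were higher in α cells (0.74 and 0.62), and Dpp6 was lower in PP cells (-1.23). Of the partners tested in β cells, 1 of 25 was higher (3.8% of all genes) and 3 were lower (2%). Those higher numbered 2 of 24 in α (4.62%), 1 of 26 in δ (5.19%) and 1 of 24 in PP cells (5.24%). The PP class also had 1 lower (3.28%).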

How the data were processed

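Islets were freed with collagenase, hand picked and dispersed, and cells of 1 CD and 1 HFD library were profiled with 10x Genomics 3' v3 chemistry, per the labels' protocols. The authors deposited raw UMI counts per gene for every barcode, without normalization; the submitters' processing notes name Cell Ranger 6.0.1 and mm10, and the file headers name software 3.0.2. The annotation and the use of strand in counting are not stated there: 35 of the 98 members have exons that overlap another gene, 33 of them an antisense gene, and their reads may be shared (Cacna2d2, Cacna1h, Cacng2, Kcnk2, Kcnk3, Kcnab3 and Scn9a among the genes named).

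Cells were chosen and classed by the limits in the Results. UMIs were summed per class and library (8 sums), scaled with TMM factors (edgeR 4.0.16, R 4.3.3) and expressed as CPM. No doublet caller entered the main values; cells meeting 2 hormone limits were set aside, and scrublet scores (scanpy 1.11.5) were used in an alternative. Free RNA was profiled in barcodes with 10 to 100 UMIs. Ratios have exact 95% conditional binomial intervals, levels exact Poisson and shares exact Clopper-Pearson intervals (scipy 1.17.1, Python 3.11.15), for counting error only. A class at 0 UMIs was set to 3 for a call. There was no test, since each group has 1 library.

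Genes were named by a rule: up to 6 highest and 4 lowest per class and up to 6 per direction and diet comparison (4 in δ and PP cells), ranked by interval bound and at least 3 times over free RNA, and the 2 members of each role with most UMIs. The values of a few members that this rule also names are not reported here. Other genes are named as counts of calls or for comparison. The members and lists were chosen with earlier results of these data known. Positions came from GENCODE M21, in which all 98 members were found by identifier, and promoter windows from RefSeq. The ratio code was tested on simulated data. The alternatives tried were other scalings, cell filters, class limits, free RNA subtraction and level minimums.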

Additional observations from a re-analysis of the deposited data

Results flagged for a closer look

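For 2 members the HFD to CD ratio went in opposite directions in different classes, with both counting intervals off a ratio of 1. Cacna1a had a log2 ratio of 0.31 in δ cells (0.08 to 0.54) and -0.12 in β cells (-0.17 to -0.06). Kcnk1 had a log2 ratio of 0.36 in β cells (0.27 to 0.44) and -0.35 in α cells (-0.53 to -0.17). None of these reached 1.5-fold. The difference between the classes was not tested, because each diet has 1 library.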

How the results depend on the processing

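No paired analysis was possible because each diet has 1 library. The 12 diet ratios of named genes kept their sign in all 120 values under the 10 alternatives that can move a ratio, 114 of them past 1.5-fold and 7 outside the counting interval of the value reported. The 6 exceptions were Kcnip1 in β cells scaled by total UMIs (0.57), Kcnu1 with free RNA subtracted (-0.56), Kcnk2 in δ cells with other hormones at most 5% (-0.26), and Cacng2 in δ cells in the last of these (0.55), with a 10% mitochondrial limit (0.54) and with free RNA subtracted (0.58). The median ratio of the members in δ cells turned to -0.03 with other hormones at most 5%. The number of members was 89 at 50 UMIs and 98 under the other cell filters.

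Counts of members changed by over 1.5 times as follows; the smaller ones, of 0 to 3 among 17 to 39 members tested, rest on single genes and are not read against all genes. Scaled by total UMIs, β cells had 7 lowest, 3 higher and 0 lower in HFD, δ cells 9 highest and 0 lowest, and PP cells 0 higher. With hormone and mitochondrial genes out of the total, β cells had 1 highest and 2 lower in HFD, α cells 1 lowest and 1 higher, and δ cells 7 highest and 2 lowest. With cells kept in every class they met, δ cells had 0 lowest and PP cells 0 higher. Hormone limits 1.5 times as high gave 1 lower in α cells. Other hormones at most 5% gave 0 lowest, 0 higher and 2 lower in δ cells and 2 higher in PP cells. A mitochondrial limit of 10% gave 1 higher in δ cells. Free RNA subtraction gave 1 lower in α, 1 higher in δ and 2 higher in PP cells. Every cell counted alike gave 1 lower in α and 2 lower in PP cells. Without a level minimum, of 98 members β cells had 6 highest and 8 lowest (2.94 and 2.49% of all genes), α cells 2 and 1 (0.717% each) and δ cells 14 and 2 (2.15 and 0.578%). In the same setting β cells had 24 of 82 higher and 7 lower in HFD (11.3 and 6.41% of all genes), α cells 5 of 51 each way (8.26 and 5.44%), δ cells 8 of 49 higher and 3 lower (8.14 and 7.54%) and PP cells 2 of 39 higher and 3 lower (7.80 and 6.07%). At 10 CPM, β cells had 0 lower, δ cells 1 highest, 0 lowest, 1 higher and 0 lower, and PP cells 0 lowest and 0 higher. Thinning to 3000 UMIs gave CD and HFD shares in δ cells of 8.96 and 13.1% for Cacna2d2, 9.51 and 10.6% for Kcna5 and 13.0 and 16.6% for Scn3b, and in β cells of 2.84 and 4.79% for Scn3a, 2.11 and 3.55% for Kcnn3 and 0.709 and 1.56% for Kcnip2.

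The cause of these moves was not tested, beyond fewer or more genes entering under another level minimum and fewer UMIs per cell after thinning.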
